A study of Mus musculus with 26 samples.

Results

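Nitric oxide and acetylcholine set the tone of many blood vessels, and the genes of both routes were followed here through the cells of the mouse retinal pigment epithelium (RPE) and choroid. The 9 genes were chosen by name, with earlier results of these data known. They comprise the endothelial nitric oxide synthase Nos3, the soluble guanylyl cyclase subunits Gucy1a3 and Gucy1b3, the cGMP-dependent kinase Prkg1, the phosphodiesterase Pde5a, the muscarinic receptors Chrm2 and Chrm3, the potassium channel subunit Kcnj5 and the vasopressin receptor Avpr1a. All 9 had a row among the 16426 genes of the single-cell count tables and among the 17623 genes of a bulk table of RPE/choroid tissue, and 4 of the 9 were among the 99 genes of a table of choroidal endothelial cell (EC) enriched genes.

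In the textbook scheme, ECs make nitric oxide, which diffuses to neighboring contractile cells and binds guanylyl cyclase, a dimer of an alpha and a beta subunit. The cyclase makes cGMP, the kinase encoded by Prkg1 relays the signal to relaxation, and phosphodiesterases such as the product of Pde5a break cGMP down. Acetylcholine acts on muscarinic receptors, of which the M2 type (Chrm2) couples to inhibitory G proteins that open channels of the Kcnj5 kind, and the M3 type (Chrm3) couples to phospholipase C. The choroid is a densely perfused vascular bed that receives autonomic nerves and supplies the outer retina.

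The study comprised 26 samples in 10 groups. Single cells of RPE/choroid came from 3-month-old B6129PF1/J and C57BL/6J mice, with 1 library per strain made from pooled tissue of 1 male and 1 female eye. ECs of heart, liver, lung and neural retina came from 1-month-old B6129PF1/J mice and were labeled in vivo for VE-cadherin and sorted, with 3 libraries per tissue. RPE/choroid tissue of 6-month-old C57BL/6J mice came from Ihh+/+ controls and from IhhiΔEC/iΔEC mice, in which Indian hedgehog was deleted in ECs, with 3 libraries per genotype. Both genotypes carried the Cdh5-CreERT2 transgene, which is active in all ECs and not only in those of the choroid, and both had been given tamoxifen 12 weeks before. Cultured choroidal GLI1+ cells came from Gli1GFP/+ mice labeled as SWR/J, were pooled from several animals, expanded in culture and kept in low serum overnight, and were then exposed for 24 h to 100 nM SAG, an agonist of the hedgehog pathway, or to its vehicle DMSO, with 3 libraries each. Since there was 1 library per strain and the bulk tables held group means alone, no comparison here has a test across animals. Intervals of the single-cell values cover counting error only.

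The B6129PF1/J library held 17168578 unique molecular identifiers (UMIs, counts of captured transcripts) in 3637 cells, and the C57BL/6J library held 15230413 UMIs in 3928 cells. The 2 libraries shared 22 cell barcodes, and leaving those cells out changed neither the number of the 9 genes that peaked in the same cluster nor those past a limit between clusters or strains. The authors had placed the cells in 13 clusters, with RPE in cluster 1, ECs in clusters 2 to 4, stromal cells in clusters 5 to 8 and smooth muscle cells in cluster 9. Kdr, which encodes a VEGF receptor, had 16.4 UMIs per 10,000 in EC cluster 2, 8.86 in cluster 3 and 0.611 in cluster 4 of B6129PF1/J, with the same order in C57BL/6J (6.27 in cluster 3 and 0.907 in cluster 4). Cluster 6 went partly against its stromal label. The pericyte markers Rgs5, Kcnj8, Abcc9, Cspg4 and Higd1b together reached 103 UMIs per 10,000 in cluster 6 of both libraries, against 95.5 and 102 in cluster 9 and 2.67 and 2.56 in stromal cluster 5. The smooth muscle markers Acta2, Tagln, Myh11 and Cnn1 reached 191 and 196 UMIs per 10,000 in cluster 9 and at most 13 in cluster 6. Most of the pericyte sum of cluster 6 was Rgs5, at 95.9 (B6129PF1/J) and 93.0 (C57BL/6J) UMIs per 10,000. Smooth muscle cells had 92.4 and 99.3 of Rgs5, so the pericyte sum did not separate clusters 6 and 9. A set of 4 stromal markers summed to 22.0 and 18.5 in cluster 6. This was above the 3.72 and 3.24 of cluster 9 and below the 61.1 and 54.9 of cluster 5. Within this set, Pdgfra was low in cluster 6, at 0.137 and 0.0894, against 2.00 and 1.88 in cluster 5. Col1a1 had 2.92 and 2.16 in cluster 6, against 4.65 and 5.14 in cluster 5 and 0.152 and 0.0893 in cluster 9. With high pericyte markers and part of the stromal ones, the cluster is called cluster 6 below, without a cell type.

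Every one of the 9 genes was highest in the same cluster of both libraries, which held for 47.4% of the 13691 genes with at least 10 UMIs in each library. The genes fell into 2 sets that did not share a compartment. Nos3, Chrm2, Chrm3 and Kcnj5 had more than 50% of their UMIs in the EC clusters of both libraries, as did 9.2% of all genes. Gucy1a3, Gucy1b3, Prkg1, Pde5a and Avpr1a had more than 50% of their UMIs in clusters 6 and 9 of both libraries, as did 3.64% of all genes. For Avpr1a in B6129PF1/J this share was 53.5%, with an interval (48.2 to 58.8) that reached below 50%. Clusters 5 to 8, labelled stromal and including cluster 6, held 91.2% of Avpr1a UMIs in B6129PF1/J and 87.8% in C57BL/6J. They held 59.1% and 54.8% of those of Prkg1, and 58.8% and 54.65% of those of Pde5a. In the plot of levels by cluster, the first set lies over the EC clusters and the second over clusters 5 to 9.

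**Figure D1:**
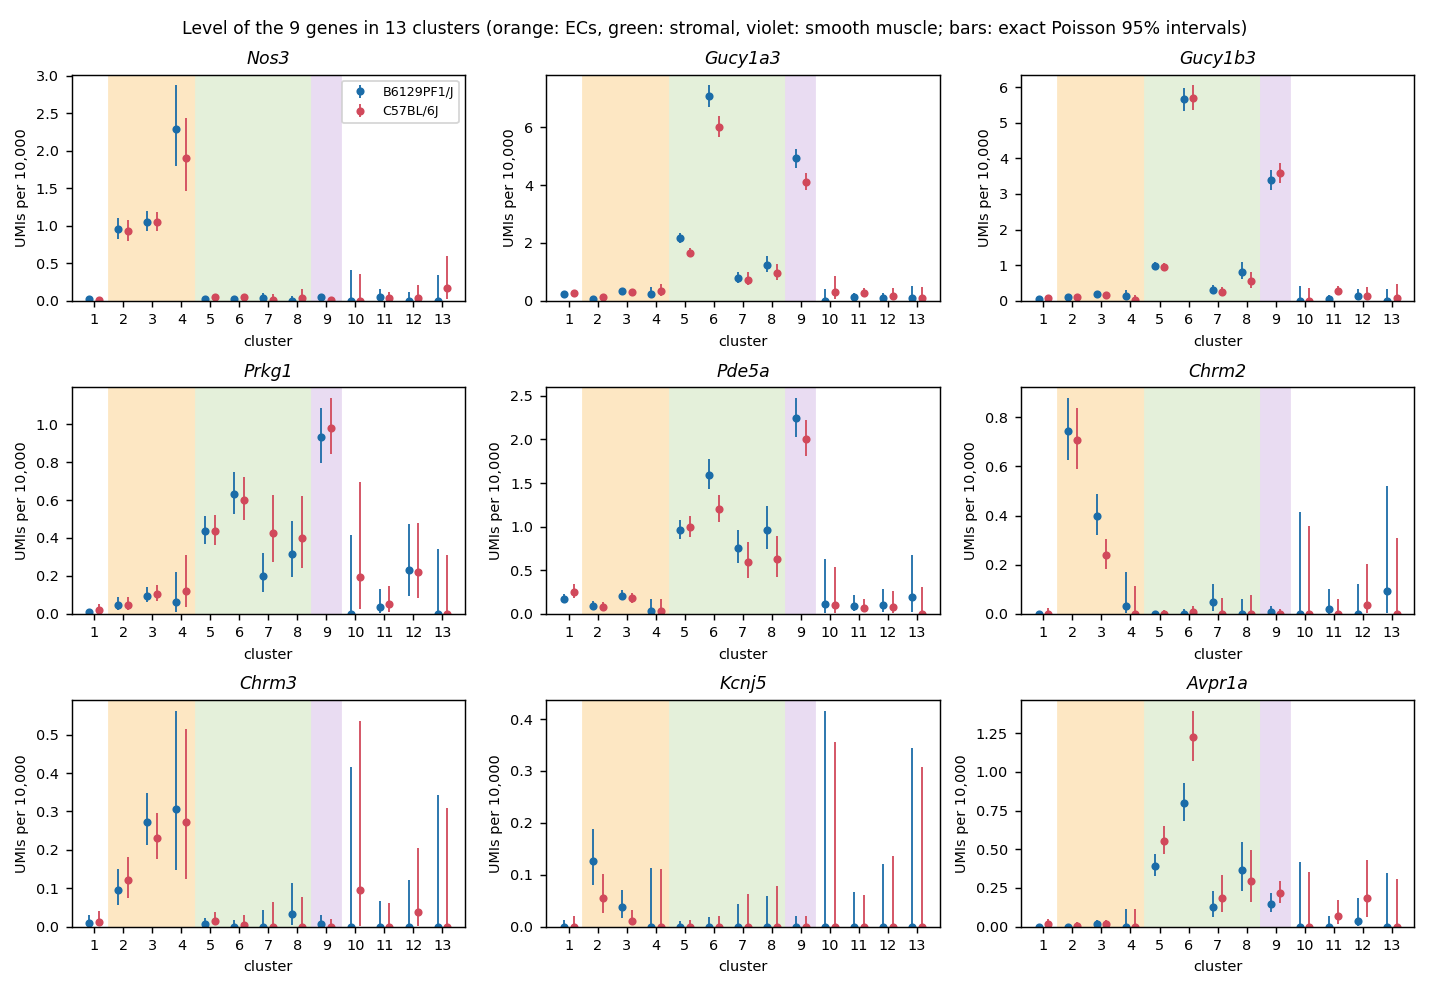
Level of each of the 9 genes in UMIs per 10,000 (vertical axes, linear, different for each gene) in clusters 1 to 13 (horizontal axes) of the B6129PF1/J (blue) and C57BL/6J (red) libraries, with exact Poisson 95% intervals as bars. Nos3, Chrm2, Chrm3 and Kcnj5 are high in EC clusters 2 to 4, and the other 5 genes in clusters 5 to 9.

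Nos3 (chr5:24364810-24384474, plus strand, GRCm38), which encodes the synthase that makes nitric oxide in endothelium, was an EC gene at every Kdr level. Its 75 UMIs in cluster 4 of B6129PF1/J came to 2.29 UMIs per 10,000 (95% interval 1.80 to 2.87), and its 63 UMIs in that cluster of C57BL/6J to 1.90 (1.46 to 2.44). Cluster 3 had 1.05 in both libraries, and cluster 2 had 0.961 in B6129PF1/J and 0.925 in C57BL/6J. The Kdr-low cluster 4 thus stood above both other EC clusters, while clusters 2 and 3 did not differ beyond their intervals. The ratio of cluster 4 to cluster 2 was 2.39 (1.80 to 3.14) in B6129PF1/J and 2.06 (1.52 to 2.76) in C57BL/6J, and Nos3 was the 1 gene of the 7 tested that was at least 2 times as high in cluster 4 as in cluster 2 in both libraries, where 3.98% of all genes were. This call was lost when each cell was thinned to 1700 UMIs or when the cells above the 95th percentile of UMIs were left out.

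Outside the ECs, Nos3 did not exceed 0.167 UMIs per 10,000 in any cluster, a level that rested on 2 UMIs in Schwann cluster 13 of C57BL/6J. The EC clusters held 94.3% of its 543 UMIs in B6129PF1/J and 93.3% of its 552 UMIs in C57BL/6J. A Nos3 UMI was seen in 52.4% of the cells of cluster 4 in B6129PF1/J (median 3915 UMIs per cell), against 1.72% of RPE cells (median 5263). After thinning, these shares were 23.8% and 0.737%. Of all 9664 genes with at least 100 UMIs in each library, those whose log2 levels over the 26 cluster and library values were most like those of Nos3 were Mall, Pkn3 and She (Pearson's r 0.97 each), a description across clusters that share cells and depth. Exons of Nos3 overlap Atg9b and Gm15587 on the opposite strand, those of Pde5a overlap 4930447N08Rik and those of Chrm2 overlap 9330158H04Rik, which matters for the bulk values, whose counting is not stated to use strand.

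Of the other genes listed for nitric oxide synthesis and its regulation, 11 of 13 had a row and at least 10 UMIs, Nos3 included, and 10 of these 11 were highest in an EC cluster in both libraries, as were 15.1% of all genes. Cav1, whose product caveolin-1 binds and restrains the synthase, peaked in cluster 4 with 4.03 and 4.23 UMIs per 10,000 (B6129PF1/J and C57BL/6J, in this order here and below where 2 values are given without a name). Smooth muscle cluster 9 had 3.18 and 3.02 of Cav1, above the 1.93 and 1.53 of EC cluster 2. Nostrin, which encodes a protein that moves the synthase within the cell, peaked in the Kdr-high cluster 2 with 2.25 and 2.94. Stromal cluster 5 had 1.56 and 1.26 of Nostrin, above the 0.917 and 0.937 of EC cluster 4. Ddah1, which clears an inhibitor of the synthase, peaked in cluster 3 with 1.16 and 1.71. The exception was Ddah2, a relative of Ddah1, which peaked in stromal cluster 7 with 3.53 and 3.61. Nos1, counted among the 10, peaked in cluster 4 on 5 and 6 UMIs alone, at 0.153 and 0.181 UMIs per 10,000. RPE held 45 of its 55 and 28 of its 37 UMIs, at 0.150 and 0.160, levels within the intervals of cluster 4. Nos2 (8 and 16 UMIs in cluster 2) and Slc7a1 (7 and 6 UMIs in cluster 4) also peaked on few UMIs.

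The subunits of the nitric oxide receptor were highest outside the ECs. Gucy1a3 and Gucy1b3, named Gucy1a1 and Gucy1b1 in current annotation, are neighbors on the minus strand of chromosome 3, at chr3:82092427-82145789 and chr3:82032006-82074689, with 17.7 kb and no annotated gene between them. The 250 bases before the RefSeq start of Gucy1b3, chr3:82074712-82074961 on the minus strand (RefSeq, GRCm38.p6), are shown because the step from cluster 6 to stromal cluster 5 was larger for this subunit than for Gucy1a3. They are read 5′ to 3′, and were searched on both strands for motifs, whose matches are in capitals where a window held one. The windows of Gucy1a3 reach into the gene as GENCODE annotates it and are not shown.
Gucy1b3: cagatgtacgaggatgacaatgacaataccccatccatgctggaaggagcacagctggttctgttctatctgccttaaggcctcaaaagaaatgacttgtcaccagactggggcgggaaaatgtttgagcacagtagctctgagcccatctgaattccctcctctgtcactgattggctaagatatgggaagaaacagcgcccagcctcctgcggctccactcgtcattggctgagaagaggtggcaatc

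The motifs were the CArG box of serum response factor, the MCAT element CATTCC, the ETS core AGGAAG and the GLI site TGGGTGGTC, which occurred in 1.47%, 12.6%, 29.5% and 0.225% of 32851 windows of this length. The window of Gucy1b3 held none of them. Over the 8 of 9 genes with a window, the matches were 4 ETS cores, 2 of them in Chrm3 and 1 each in Gucy1a3 and Prkg1, and none overlapped another. A match is a run of letters and not a shown site.

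Gucy1a3, which encodes the alpha subunit, reached 7.08 UMIs per 10,000 (6.72 to 7.45) in cluster 6 of B6129PF1/J and 6.02 (5.67 to 6.38) in cluster 6 of C57BL/6J. Smooth muscle cluster 9 followed with 4.92 (4.60 to 5.26) and 4.11 (3.82 to 4.42), and stromal cluster 5 with 2.16 and 1.65. Cluster 6 was thus the highest and cluster 9 the second in both libraries, with ratios of 1.44 (1.32 to 1.57) and 1.46 (1.33 to 1.61). A Gucy1a3 UMI was seen in 88.4% of the B6129PF1/J cells of cluster 6 (median 3595 UMIs) and, of the EC clusters, in 2.16% of cluster 2 (median 4232.5), 8.84% of cluster 3 (median 4147) and 6.35% of cluster 4 (median 3915). After thinning, these shares were 68.8%, 1.08%, 3.26% and 3.17%.

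Gucy1b3, which encodes the beta subunit, had the same order. Its levels were 5.65 (5.33 to 5.99) and 5.70 (5.37 to 6.05) UMIs per 10,000 in cluster 6, 3.38 (3.12 to 3.66) and 3.59 (3.32 to 3.88) in cluster 9, and 0.970 and 0.946 in cluster 5. The step from cluster 6 down to cluster 5 was 5.83-fold (5.14 to 6.63) and 6.03-fold (5.26 to 6.92) for Gucy1b3, but 3.27-fold (2.99 to 3.59) and 3.64-fold (3.26 to 4.06) for Gucy1a3, and these intervals do not overlap.

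The balance of the subunits therefore changed with the cluster. Gucy1a3 UMIs were 1.25 (1.16 to 1.35) times those of Gucy1b3 in cluster 6 of B6129PF1/J and 1.06 (0.970 to 1.15) times in C57BL/6J, and they were 2.23 (1.95 to 2.56) and 1.75 times those of Gucy1b3 in cluster 5, where both intervals lay above those of cluster 6. These are ratios of 3′ UMI counts and not of protein. Both subunits were often found in the same cells. In cluster 6, 406 of the 478 B6129PF1/J cells with a Gucy1a3 UMI also had a Gucy1b3 UMI (84.9%, 81.4 to 88.0), against 74.6% (62.1 to 84.7) of the cells without one, and in C57BL/6J it was 77.2% against 73.7%, differences within the intervals. In cluster 5 of B6129PF1/J it was 137 of 408 cells (33.6%) against 22.5%, and in C57BL/6J 33.5% against 20.4%, with intervals that did not overlap. Cells with a Gucy1a3 UMI were deeper, with medians of 3669 against 2989 UMIs in cluster 6 and 3674 against 3274.5 in cluster 5 of B6129PF1/J.

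Few EC transcripts of the cyclase were counted. EC clusters held 2.97% and 4.61% of Gucy1a3 UMIs and 3.14% and 3.05% of Gucy1b3 UMIs. The 67 EC cells of B6129PF1/J with a UMI of either subunit had a median of 8301 UMIs and 21.8 Rgs5 UMIs per 10,000, against 4062 UMIs and 0.493 Rgs5 UMIs in the other 796 EC cells. The 79 such cells of C57BL/6J had a median of 6408 UMIs and 16.7 Rgs5 UMIs per 10,000, against 3330 and 0.709 in the other 945. The pericyte gene Rgs5 and the depth of the cell were thus both higher in ECs with cyclase UMIs. Their part in these UMIs was not tested.

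Of the 6 genes listed for cGMP synthesis, 5 were measured. In all, 3 were highest in cluster 6 in both libraries, Gucy1a3 and Gucy1b3 included, as were 2.3% of all genes. The third cyclase subunit gene, Gucy1a2, was also highest in cluster 6, at 0.166 and 0.168 UMIs per 10,000. The membrane-bound cyclases that serve as natriuretic peptide receptors lay elsewhere, with Npr1 highest in RPE at 0.550 and 0.566, and Npr2 highest in stromal cluster 7 of B6129PF1/J (0.353) and in Schwann cluster 12 of C57BL/6J (0.257).

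Prkg1 (chr19:30564489-31765033, minus strand), which encodes the kinase that cGMP activates, was highest in smooth muscle. Its level in cluster 9 was 0.935 UMIs per 10,000 (0.798 to 1.09) in B6129PF1/J and 0.982 (0.842 to 1.14) in C57BL/6J. Cluster 6 had 0.632 and 0.600, and cluster 5 had 0.438 and 0.437. The ratio of cluster 9 to cluster 6 was 1.48 (1.17 to 1.88) and 1.64 (1.29 to 2.09), so that the order of clusters 9 and 6 was the reverse of that for the cyclase subunits. The window before its first RefSeq start, chr19:31765034-31765283 on the minus strand, is shown as one that held an ETS core, in capitals.
Prkg1: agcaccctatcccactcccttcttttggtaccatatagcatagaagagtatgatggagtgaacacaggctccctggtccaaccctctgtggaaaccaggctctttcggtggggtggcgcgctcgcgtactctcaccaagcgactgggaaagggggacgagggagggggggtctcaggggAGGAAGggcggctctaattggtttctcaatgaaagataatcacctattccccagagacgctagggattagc

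Pde5a (chr3:122728947-122859374, plus strand), which encodes the cGMP phosphodiesterase that sildenafil inhibits, went with the kinase. It reached 2.24 UMIs per 10,000 (2.03 to 2.47) and 2.01 (1.81 to 2.23) in cluster 9, 1.60 (1.43 to 1.78) and 1.20 (1.05 to 1.37) in cluster 6, and 0.960 and 1.00 in cluster 5. Its ratio of cluster 9 to cluster 6 was 1.41 (1.21 to 1.63) and 1.67 (1.41 to 1.99). A Pde5a UMI was seen in 61.1% of B6129PF1/J cells of cluster 9 (median 4635 UMIs) and in 3.78% of the cells of EC cluster 2 (median 4232.5) and 8.37% of those of EC cluster 3 (median 4147), or in 35.9%, 1.62% and 3.02% after thinning. Of the 134 Prkg1 cells of cluster 9 in B6129PF1/J, 88 had a Pde5a UMI (65.7%), against 58.6% (52.0 to 64.9) of the others, a difference within the intervals.

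At the limit of 2 times, 5 of the 9 genes could be tested between clusters 9 and 6. None was at least 2 times as high in cluster 9 (5.86% of all genes were), and Avpr1a alone was at least 2 times as high in cluster 6 (11.9% of all genes were). The likest genes over the 26 values were Ednra, the endothelin A receptor, for Gucy1a3 (r 0.97), Prkg1 (0.92) and Pde5a (0.94). Gucy1a3 was further like Gucy1b3 (0.95) and Prkar1b (0.95), Prkg1 like Des (0.90) and Rasl11a (0.90), and Pde5a like Prrx1 (0.93) and Sobp (0.93). Gucy1b3 was most like Cox4i2 (0.98), Foxs1 (0.97) and Ndufa4l2 (0.97).

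Of 10 genes listed for the kinase and its targets, all had at least 10 UMIs in each library and 8 were highest in cluster 9 in both, as were 3.73% of all genes. Without Prkg1 itself this was 7 of 9. Pln, a brake on the calcium pump of the sarcoplasmic reticulum, reached 7.17 and 4.10 UMIs per 10,000 there, Ppp1r12a, the targeting subunit of myosin phosphatase, 7.16 and 7.50, and Mrvi1, a kinase substrate at calcium stores, 2.47 and 2.14. Rgs2, a regulator of G protein signals, was instead highest in hematopoietic cluster 11 with 4.86 and 3.88.

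Genes for the breakdown of cGMP peaked in many kinds of cells. Of 10 genes listed for cGMP breakdown and export, 3 were highest in cluster 9 in both libraries, Pde5a included, as were 3.73% of all genes. A further 1 was highest in cluster 6 (2.3% of all genes) and 2 in an EC cluster, near the 15.1% of all genes. The other 4 peaked elsewhere or in different clusters of the libraries. Pde3a reached 5.44 and 4.11 UMIs per 10,000 and Pde1a 1.07 and 1.03 in cluster 9, while Pde2a, which cGMP itself stimulates, reached 2.84 and 2.92 in EC cluster 2. Pde10a peaked in Schwann cluster 13 with 1.30 and 0.918. The heat map of the listed genes shows these peaks side by side.

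**Figure D2:**
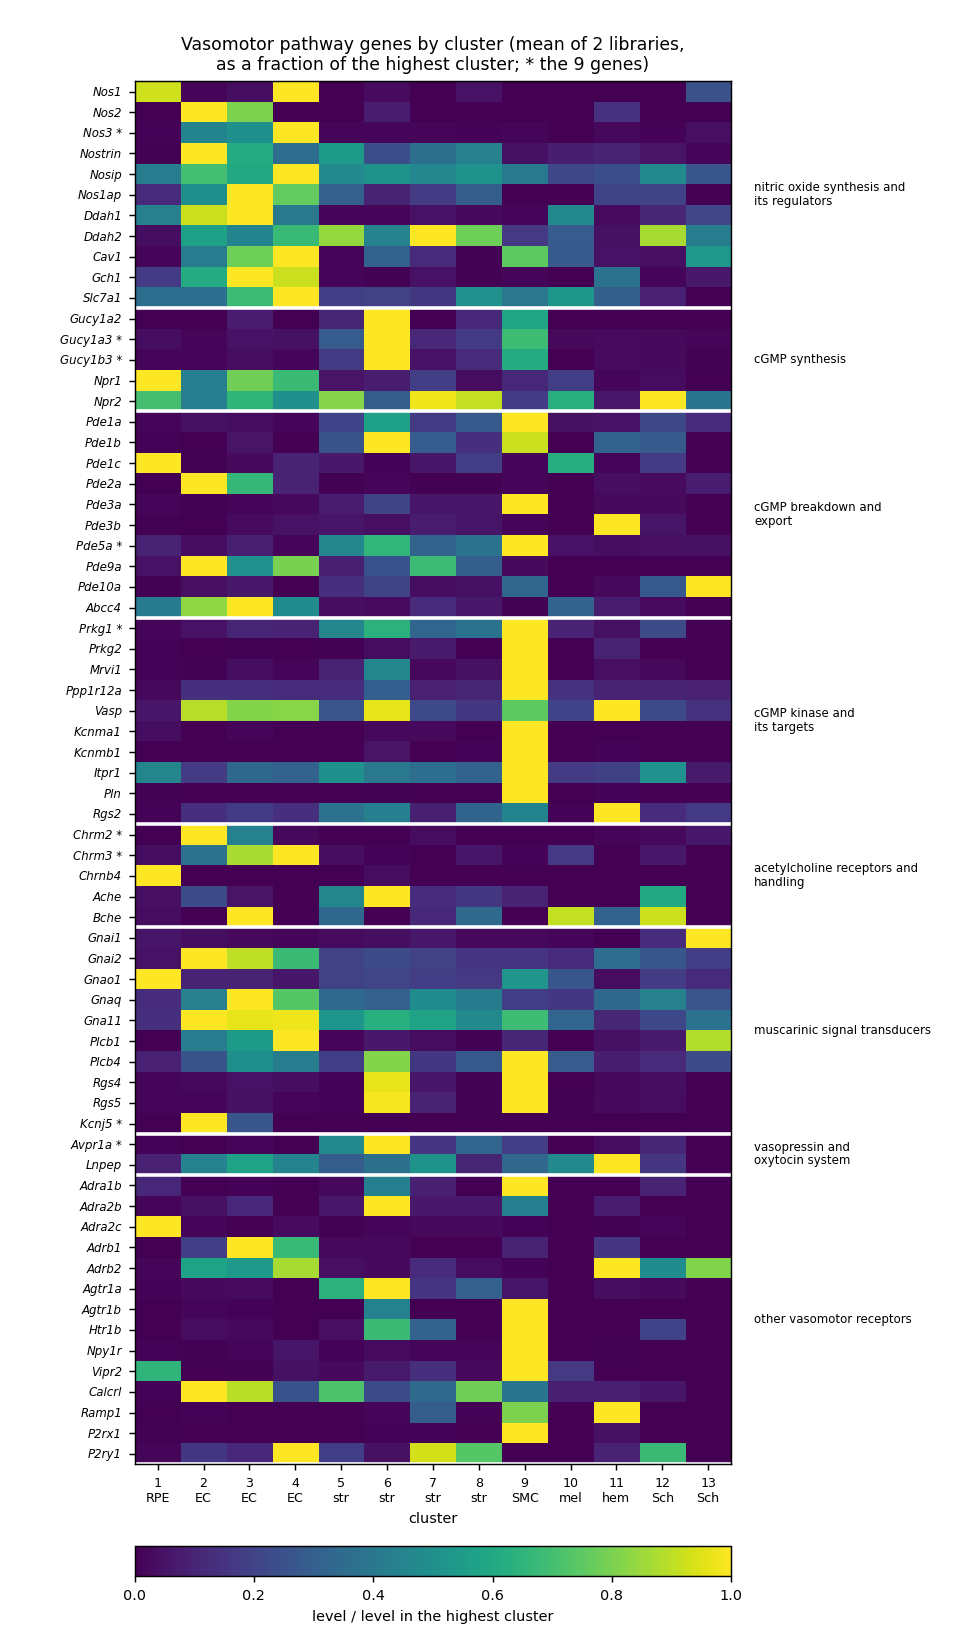
Level of the 67 listed vasomotor genes with at least 10 UMIs in each library (rows, by list, asterisks mark the 9 genes) in clusters 1 to 13 (columns), as the mean of both libraries divided by the level in the highest cluster (color, 0 to 1, linear). Nitric oxide synthesis genes other than Ddah2 are brightest over EC clusters 2 to 4, Nos1 being nearly as bright over RPE. The 3 cyclase subunits are brightest over cluster 6, and 8 of 10 genes of the kinase list over smooth muscle cluster 9.

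The muscarinic receptors were EC genes in this tissue. Chrm2 (chr6:36388084-36528414, plus strand) reached 0.745 UMIs per 10,000 (0.628 to 0.879, 142 UMIs) in the Kdr-high cluster 2 of B6129PF1/J and 0.706 (0.590 to 0.839, 129 UMIs) in that of C57BL/6J. Cluster 3 had 0.398 (0.322 to 0.486) and 0.238 (0.183 to 0.303). Cluster 4 had 1 UMI in B6129PF1/J and 0 in C57BL/6J. The level was thus higher in cluster 2 than in cluster 3, as that of Kdr was, by ratios of 1.87 (1.44 to 2.45) and 2.97 (2.19 to 4.08).

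Against cluster 4, the Chrm2 level of cluster 2 was 24.4 times as high (4.31 to 970) in B6129PF1/J, on the single UMI, and at least 7.79-fold higher in C57BL/6J, where 0 UMIs in cluster 4 allow up to 0.0907 UMIs per 10,000, taken as 3 counts. EC clusters held 97.2% of its 246 UMIs and 99.0% of its 195. In smooth muscle cluster 9, where M2 receptors are known from many other organs, there was 1 UMI in B6129PF1/J and 0 in C57BL/6J. In cluster 2 of B6129PF1/J, 29.5% of the cells (median 4232.5 UMIs) had a Chrm2 UMI, against 0 of 407 RPE cells, which allows a share of up to 0.737% of cells with a UMI at a median of 5263 UMIs. After thinning, the share in cluster 2 was 13.5%.

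Chrm3 (chr13:9875486-10360847, minus strand) was spread over the ECs in the opposite order. It had 0.306 UMIs per 10,000 (0.147 to 0.562, 10 UMIs) and 0.272 (0.124 to 0.516, 9 UMIs) in cluster 4, 0.274 (0.212 to 0.348) and 0.230 (0.176 to 0.295) in cluster 3, and 0.0945 (0.0560 to 0.149) and 0.120 (0.0755 to 0.182) in cluster 2. Clusters 4 and 3 did not differ beyond their intervals, and cluster 3 was 2.90 (1.70 to 5.18) and 1.91 (1.16 to 3.26) times as high as cluster 2. Cluster 9 had 1 UMI in B6129PF1/J and 0 in C57BL/6J. EC clusters held 92.2% and 91.2% of its 102 UMIs in each library.

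The window before the start of Chrm2, chr6:36387834-36388083 on the plus strand (RefSeq, GRCm38.p6), is shown because Chrm2 had more UMIs in ECs than Chrm3. It held none of the motifs, and that of Chrm3, which held 2 ETS cores, reaches into the gene as GENCODE annotates it and is not shown.
Chrm2: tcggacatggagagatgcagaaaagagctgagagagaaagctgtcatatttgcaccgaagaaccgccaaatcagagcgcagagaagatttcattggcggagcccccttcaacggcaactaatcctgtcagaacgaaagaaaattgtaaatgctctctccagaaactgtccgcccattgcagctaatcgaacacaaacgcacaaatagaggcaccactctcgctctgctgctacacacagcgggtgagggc

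Kcnj5 (chr9:32314707-32344350, minus strand), a subunit of the G protein-gated potassium channels, was rare and was counted in no cluster other than 2 and 3. Cluster 2 had 24 UMIs in B6129PF1/J (0.126 per 10,000, 0.0807 to 0.187) and 10 in C57BL/6J (0.0548, 0.0263 to 0.101). Cluster 3 had 9 and 3. As for Chrm2, cluster 2 was higher than cluster 3, here by ratios of 3.38 (1.52 to 8.26) and 4.92 (1.27 to 27.8). Over the 26 values, r was 0.90 for Kcnj5 and Chrm2 and 0.40 for Kcnj5 and Chrm3. Kcnj5 also had fewer UMIs than the minimum used for the likest genes. Since all its UMIs lay in clusters 2 and 3, these r cannot show likeness across the other clusters. In single cells Kcnj5 and Chrm2 were seldom seen together. Of 109 Chrm2 cells of cluster 2 in B6129PF1/J, 9 had a Kcnj5 UMI (8.26%, 3.85 to 15.1). Of the cells without a Chrm2 UMI, 5.36% had one (2.96 to 8.84), a difference within the intervals. Kcnj3 and Kcnj6, which encode partner subunits of this channel, had no row in the single-cell counts.

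By the limit of 2 times in both libraries, 3 of 7 genes (Chrm2, Kcnj5 and Pde5a) were counted as higher in cluster 2 than in cluster 4, as were 8.38% of all genes, but Chrm2 was the one with a ratio or bound above 2 that its counts bear out. For Pde5a the ratio rested on 1 UMI in cluster 4 of each library, and the intervals of its ratios reached below 1. For Kcnj5 cluster 4 had 0 UMIs, which allows 0.0917 per 10,000 in B6129PF1/J and puts cluster 2 at least 1.37-fold higher there, and in C57BL/6J cluster 2 itself was below that limit, so that no ratio of 2 was shown for it. After thinning, Chrm2 alone of these 3 passed.

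The depth of the cells differed with Chrm2 in cluster 3. Cells of cluster 3 with a Chrm2 UMI had medians of 8195 and 7573 UMIs, against 3886 and 3315 in the other cells, and the Chrm2 level was 0.476 UMIs per 10,000 (0.380 to 0.590) in the B6129PF1/J cells above the median depth and 0.185 (0.0955 to 0.323) in those at or below it. In C57BL/6J it was 0.250 (0.186 to 0.330) and 0.201 (0.110 to 0.337), which overlap. In cluster 2 the Chrm2 level of the deeper cells was 0.647 (0.516 to 0.801) against 0.956 (0.726 to 1.24) in B6129PF1/J. In C57BL/6J it was 0.670 (0.537 to 0.826) against 0.799 (0.574 to 1.08), and the intervals overlap in both libraries. Chrm3 in cluster 3 was not higher in deeper cells, at 0.244 (0.176 to 0.329) and 0.215 (0.156 to 0.290) in the deeper cells against 0.354 (0.224 to 0.531) and 0.272 (0.164 to 0.425).

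In cluster 2 the share of cells with a Nos3 UMI differed between Chrm2 cells and the others by less than the intervals, at 33.9% (25.1 to 43.6) against 31.0% (25.5 to 37.0) in B6129PF1/J and 35.2% (25.4 to 45.9) against 29.8% (24.8 to 35.2) in C57BL/6J. In cluster 3 it was higher in Chrm2 cells, at 56.3% (43.3 to 68.6) against 34.4% (29.6 to 39.5) and 55.8% (41.3 to 69.5) against 33.8% (29.7 to 38.1), where these cells were also the deeper ones, and the part of depth in this was not tested. Chrm3 cells of cluster 3 had a Nos3 UMI in 52.5% against 35.3% and 46.6% against 34.6%, with intervals that overlapped. Chrm3 and Nos3 were alike across clusters (r 0.90), more so than Chrm2 and Nos3 (0.63). The genes likest to Chrm2 were Fev (0.95), Meis1 (0.95) and Ihh (0.95), the gene that was deleted in ECs in the bulk comparison, and those likest to Chrm3 were Tmem252 (0.96), Mecom (0.94) and Grrp1 (0.94). Ihh was itself highest in cluster 2 of both libraries.

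Other parts of the cholinergic system were sparse. Of the 13 genes listed for acetylcholine receptors and handling, 7 had a row and 5 had at least 10 UMIs in each library. Ache, which encodes acetylcholinesterase, was highest in cluster 6 at 0.117 and 0.110 UMIs per 10,000, and the nicotinic subunit gene Chrnb4 in RPE at 0.0767 and 0.0744. Bche had 28 and 20 UMIs in all, and its highest cluster differed between libraries. Among the signal transducers of the receptors, 5 of the 10 measured were highest in an EC cluster in both libraries (15.1% of all genes), Kcnj5 included. Gnai2, an inhibitory G protein subunit on which M2 receptors act, was another of them, with 15.3 and 13.3 in cluster 2. Gna11, of the class on which M3 receptors act, had 2.52 and 2.54 at its highest, in EC clusters 3 and 2, and Rgs5, a regulator of G proteins, 95.9 in cluster 6 of B6129PF1/J and 99.3 in cluster 9 of C57BL/6J. Gnai1 peaked in Schwann cluster 13 with 3.44 and 4.51.

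Avpr1a (chr10:122448499-122453452, plus strand), the V1a vasopressin receptor, which causes constriction in many vessels, had few UMIs in ECs. It was highest in cluster 6, at 0.798 UMIs per 10,000 (0.680 to 0.930) in B6129PF1/J and 1.23 (1.07 to 1.39) in C57BL/6J. Cluster 5 had 0.394 and 0.556, cluster 8 had 0.364 and 0.293, and smooth muscle cluster 9 had 0.146 (0.0957 to 0.215) and 0.218 (0.155 to 0.297). Cluster 6 was thus 5.45 (3.59 to 8.59) and 5.63 times as high as smooth muscle.

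This receptor was counted in a minority of cells even there. An Avpr1a UMI was seen in 22.7% of the cells of cluster 6 in B6129PF1/J (12.2% after thinning) and in 27.9% in C57BL/6J (17.9%, median 2870 UMIs), against 0 of 407 and 3 of 374 RPE cells (0.802%, median 3406.5 UMIs). EC clusters held 4 of the 353 Avpr1a UMIs of B6129PF1/J (1.13%, 0.310 to 2.88) and 6 of the 469 of C57BL/6J (1.28%, 0.471 to 2.76). All 9 that fell in cluster 3 came from cells above the median depth of that cluster (4 and 5 UMIs). The likest genes were Rerg (0.97), Fam110b (0.94) and Agtr1a (0.93), the angiotensin II type 1a receptor, which was itself highest in cluster 6 with 2.44 and 1.64 UMIs per 10,000. Of the 7 genes of the vasopressin and oxytocin system, Lnpep, a peptidase that cleaves both hormones, was the other one with at least 10 UMIs in each library, and it was highest in hematopoietic cells at 0.0731 and 0.132.

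Of 14 other vasomotor receptors with at least 10 UMIs in each library, 8 were highest in cluster 6 or 9 in both libraries, as were 6.51% of all genes, and 2 in an EC cluster, which is near the 15.1% of all genes. Npy1r, a neuropeptide Y receptor, reached 1.24 and 0.915 UMIs per 10,000 in cluster 9, Calcrl, a receptor for the dilator CGRP and for adrenomedullin, 1.13 and 1.05 in EC cluster 2, and Adra2c, an adrenergic receptor, 1.02 and 1.13 in RPE.

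Between the strains, 2 of the 9 genes differed by more than 1.5 times in their highest cluster, a share close to the 23.5% of all genes that did. Avpr1a was 1.54 (1.25 to 1.89) times as high in C57BL/6J in cluster 6, and it was higher there too in cluster 5, by 1.41 (1.11 to 1.80). Kcnj5 was 2.30 (1.06 to 5.39) times as high in B6129PF1/J in cluster 2, on 24 and 10 UMIs. Gucy1a3 was slightly higher in B6129PF1/J in clusters 5, 6 and 9, by 1.31 (1.16 to 1.48), 1.18 (1.09 to 1.27) and 1.20 (1.08 to 1.32), whereas the intervals of Gucy1b3 included 1 in all 3. Pde5a in cluster 6 (1.33, 1.12 to 1.58) and Chrm2 in cluster 3 (1.68, 1.21 to 2.34) were also higher in B6129PF1/J. Among clusters with lower levels, Gucy1a3 in cluster 2 (2.17, 1.05 to 4.75), Gucy1b3 in cluster 11 (4.81, 1.38 to 25.8), Prkg1 in cluster 7 (2.13, 1.10 to 4.19) and Nos3 in cluster 5 (2.87, 1.05 to 9.02) were higher in C57BL/6J, on at most 25 UMIs per library. With 1 library per strain, strain and library cannot be told apart.

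The table of choroidal EC enriched genes compares ECs sorted from choroid with ECs of 4 other tissues by their mean FPKM, a read count normalized to transcript length and sequencing depth. Its choroid values are the authors' and belong to samples not analysed here. Chrm2, Chrm3, Kcnj5 and Avpr1a were listed. Chrm3 had 11.5 FPKM in choroid, 0.178 in neural retina, 0.523 in lung, 0 in liver and 0.377 in heart. Chrm2 had 6.97 FPKM in choroid, 0.128 in neural retina, 1.23 in lung, 0 in liver and 0.0450 in heart. Both receptors were highest by far in choroid, and lung came next in each case.

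Kcnj5 had 2.25 FPKM in choroid and 0.142, 0.187, 0.0770 and 0.0770 in neural retina, lung, liver and heart ECs. Avpr1a had 3.17 FPKM in choroid and 0.0210, 0.585, 0.0140 and 0.228 in the same order. The ratio of choroid to the next tissue was 22.1 for Chrm3, 12.0 for Kcnj5, 5.65 for Chrm2 and 5.41 for Avpr1a, where the median of the 97 genes with a ratio was 10.7 and the lowest was 5.07. These values decided which genes the table lists, so they are a description. The other 5 genes are not in this table, and their levels in these ECs were not analysed here.

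**Figure D3:**
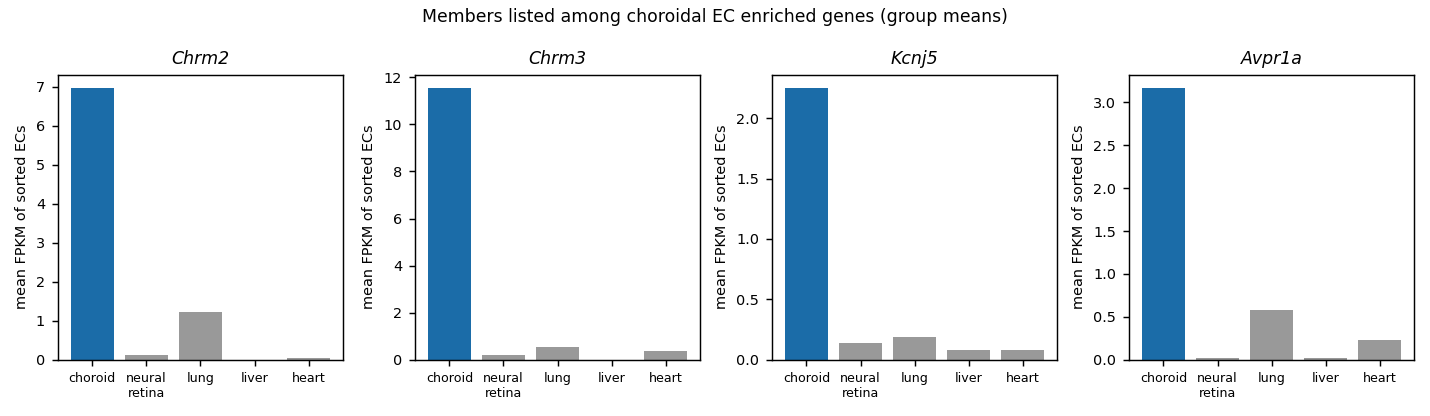
Mean FPKM (vertical axes, linear from 0) of the 4 listed genes in sorted ECs of choroid (blue) and of neural retina, lung, liver and heart (gray). The choroid bar is the tallest in each panel, at 6.97 for Chrm2, 11.5 for Chrm3, 2.25 for Kcnj5 and 3.17 for Avpr1a.

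Avpr1a was the one of these 4 genes that the single cells placed outside the ECs. It shared this with much of the table. Of the 96 listed genes with at least 10 UMIs in each single-cell library, 24 (25.0%) were highest in an EC cluster in both libraries, 34 (35.4%) in a cluster labelled stromal, 8 of them in cluster 6, and 19 (19.8%) in RPE, where 15.1%, 12.1% and 6.27% of all genes were. The RPE gene Rpe65 was listed with 21.8 FPKM in choroid, the melanocyte gene Pmel with 18.8 and the stromal gene Gli1 with 3.58. Of 29 markers of cell types searched, Rpe65 and Pmel were the 2 in the table. The other RPE and melanocyte markers and all stromal, pericyte and EC markers searched were not in it. Gli1 was not among the 29. The part of RNA from other cells in the Avpr1a value was not tested.

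**Figure D4:**
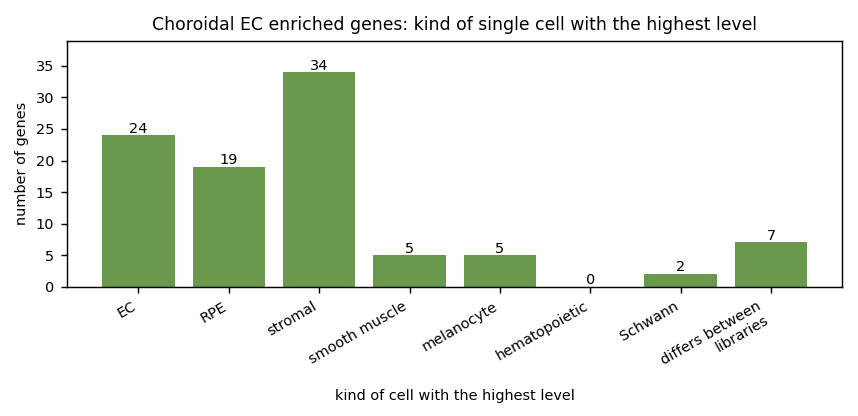
Number of choroidal EC enriched genes (vertical axis, from 0) by the kind of single cell in which they were highest in both libraries (horizontal axis), for the 96 genes with at least 10 UMIs in each library. The tallest bar is that of the clusters labelled stromal with 34 genes, 8 of them in cluster 6, followed by EC with 24 and RPE with 19.

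In RPE/choroid tissue, per-length levels of the 9 genes in Ihh+/+ mice ran from 5.76 FPKM for Pde5a, 5.11 for Gucy1a3, 4.93 for Nos3, 3.30 for Gucy1b3 and 2.19 for Prkg1 to 1.39 for Chrm3, 1.12 for Avpr1a, 0.386 for Chrm2 and 0.143 for Kcnj5. Chrm3 was 3.59 times as high as Chrm2 on this scale, and 1.66 times as high in sorted choroidal ECs, whereas the single cells held fewer 3′ UMIs of Chrm3 than of Chrm2 (102 against 246 and 102 against 195).

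The deletion was visible in the targeted gene. Ihh had 1.53 FPKM in Ihh+/+ and 0.454 in IhhiΔEC/iΔEC tissue, and its target Gli1 had 9.40 and 3.15. Of the 9 genes, 7 reached 1 FPKM in the higher group, and 1 of these differed by at least 1.5 times, as did 4.71% of all 11411 genes. This gene was Avpr1a, with 1.12 FPKM in Ihh+/+ and 0.697 in IhhiΔEC/iΔEC mice, a ratio of 1.61. Its call was lost when 1 FPKM was added to both values and at a limit of 2 times. Of all genes, 2.53% were at least 1.5 times lower after the deletion and 2.17% at least 1.5 times higher. In bulk tissue, fewer cells of a type and less RNA per cell cannot be told apart.

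The other genes had smaller differences. Gucy1b3 had 3.30 FPKM in controls and 2.43 after the deletion (log2 ratio -0.44), Prkg1 had 2.19 and 1.72 (-0.35), Chrm3 had 1.39 and 1.13 (-0.30) and Pde5a had 5.76 and 4.90 (-0.23). Gucy1a3 had 5.11 and 4.88 (-0.07), and Nos3 was the one with a higher value after the deletion, 4.93 and 5.69 (0.21). The log2 ratio of the 7 genes had a median of -0.30 and was below 0 in 6, where that of all genes had a median of -0.04 and 59.3% were below 0. Chrm2 (0.386 and 0.364) and Kcnj5 (0.143 and 0.135) were under 1 FPKM.

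Cell type markers differed between the genotypes as well. The summed level of the 4 stromal markers Pdgfra, Pdgfrb, Col1a1 and Dcn was 562 FPKM in controls and 372 after the deletion, with all 4 lower, and that of the 3 melanocyte markers was 1613 and 1020, with all 3 lower. The 4 EC markers summed to 74.5 and 63.5, the 5 pericyte markers to 83.8 and 70.9 and the 4 smooth muscle markers to 57.3 and 51.3. The 2 RPE markers summed to 1288 and 1617, the 3 hematopoietic markers to 562 and 782 and the 3 Schwann markers to 28.4 and 29.2. Most of the hematopoietic sum was Lyz2, at 542 and 759, and 1 of these 3 markers was lower. No marker was at 0. The stromal sum was thus 1.51 times lower and the pericyte sum 1.18 times lower after the deletion, with 4 of the 5 pericyte markers lower and a median ratio of 0.975. Avpr1a was highest in cluster 6, which held pericyte markers, and second in stromal cluster 5. The part of these markers in its lower value was not tested.

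Of the 92 listed vasomotor genes, 90 had a row in this table and 44 reached 1 FPKM in the higher group. At the limit of 1.5 times 2 were higher after the deletion and 3 were lower, Avpr1a included. Of all genes, 2.17% were higher and 2.53% lower at this limit. Vipr2, a receptor for the dilator VIP, had 6.16 FPKM in controls and 10.3 after the deletion, and Pde1a, a calcium-dependent phosphodiesterase, had 1.11 and 2.14. Agtr1a had 2.34 and 1.43, and Pde9a, a phosphodiesterase specific for cGMP, 1.22 and 0.764.

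**Figure D5:**
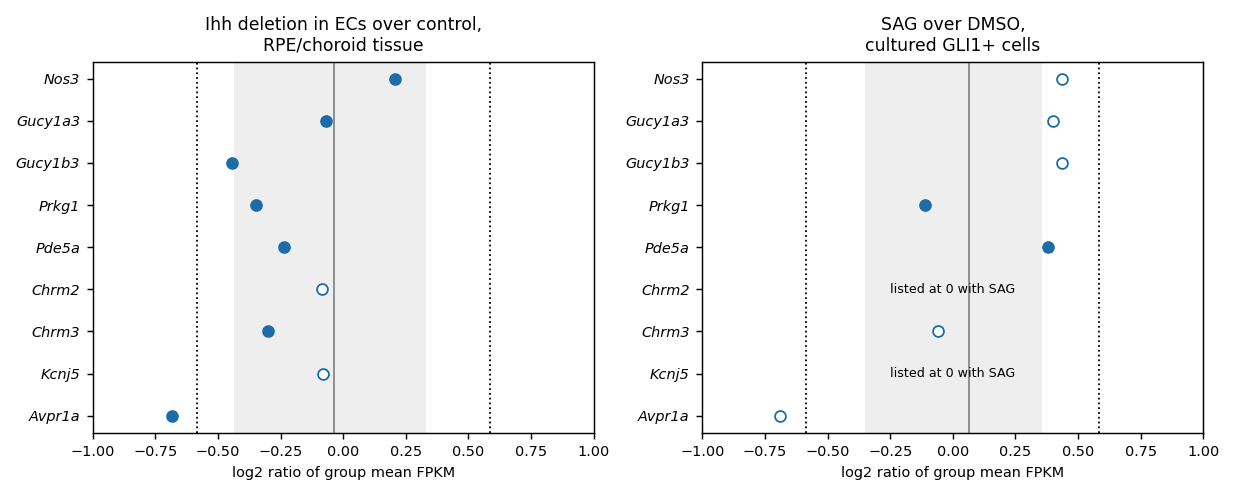
Log2 ratio of group mean FPKM (horizontal axes) of the 9 genes (rows) for IhhiΔEC/iΔEC over Ihh+/+ tissue (left) and SAG over DMSO in cultured GLI1+ cells (right), with filled points for genes of at least 1 FPKM in the higher group and open points for lower ones. The gray band spans the 5th to 95th percentile of genes of at least 1 FPKM (-0.43 to 0.33 and -0.35 to 0.35), the gray line is their median and dotted lines mark 1.5 times; Avpr1a lies outside them at -0.68 and -0.69.

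Cultured GLI1+ cells had little of most of these genes. With DMSO, Prkg1 had 7.52 FPKM and Pde5a 5.30, but Gucy1a3 had 0.118, Gucy1b3 0.0887, Chrm3 0.202, Avpr1a 0.277 and Nos3 0.0247, and Chrm2 and Kcnj5 were below 0.01. The kinase and the phosphodiesterase were thus well above 1 FPKM and both cyclase subunits well below it. The EC markers summed to 0.400 FPKM in these cells, the pericyte markers to 2.29, the smooth muscle markers to 619 and the stromal markers to 2472.

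Gli1, a target of the hedgehog pathway, had 0.0280 FPKM with DMSO and 3.65 with SAG. The 2 vasomotor genes of the 9 that reached 1 FPKM did not differ by 1.5 times (3.84% of all 10325 genes did, 1.38% being higher and 2.45% lower with SAG). Pde5a had 5.30 FPKM with DMSO and 6.89 with SAG, a ratio of 1.30 above which lay fewer than 5% of all genes, and Prkg1 had 7.52 and 6.95. Avpr1a had 0.277 and 0.171, below the limit of 1 FPKM, and Chrm2 and Kcnj5 were listed at 0 with SAG. Among the 34 listed vasomotor genes of at least 1 FPKM, 1 was higher and 3 were lower at the limit of 1.5 times. Pde3a had 3.68 FPKM with DMSO and 5.87 with SAG, Pde1a had 7.33 and 4.87, Kcnma1, a calcium-activated potassium channel, had 1.85 and 1.16, and Rgs4, a regulator of G proteins, 2.89 and 1.14.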

How the data were processed

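The authors made the single-cell UMI counts with Cell Ranger on mm10, filtered cells in Seurat 2.1 and deposited the counts as raw values with a cluster and a cell type for each cell, for slightly fewer cells than the study describes. Cluster 5 holds more cells than the study describes and cluster 7 fewer in both libraries. The clusters used here are thus not the published ones less a few cells. The fraction of mitochondrial UMIs and the other cell statistics deposited with them were not used. Bulk reads had been aligned with STAR 2.4.0f1, and the authors derived FPKM with Cufflinks 2.0.2, deposited as group means of 3 libraries, so that no test between libraries could be made. Columns of the authors' own comparisons (fold changes, adjusted p-values, averages per cluster) were not used. For each cluster and library, UMIs were summed and divided by all UMIs of the cluster, times 10,000, with exact Poisson 95% intervals, conditional exact intervals of ratios and Clopper-Pearson intervals of shares. A count of 0 was taken to allow 3 counts. For thinned values, 1700 UMIs were drawn from each cell. No doublets were removed. Clusters were compared at 2 times in both libraries with at least 10 UMIs in the higher cluster of each, and strains (at least 10 UMIs) and bulk groups (at least 1 FPKM in the higher) at 1.5 times. Named beside the 9 genes are up to 4 further genes of each of 8 lists with the highest level in any cluster, list genes past 1.5 times in bulk, and the 3 likest genes by Pearson's r of log2(UMIs per 10,000 + 0.1) among genes with at least 100 UMIs in each library (Kcnj5 had fewer). The r between pairs of the 9 genes used no such minimum. Gli1, Ihh, Kdr, the overlapping genes and cell type markers were added to describe clusters and tables, and Nos1, Nos2 and Slc7a1 to show peaks on few UMIs. The 9 genes and all lists were chosen with earlier results of these data known. Positions are from GENCODE vM21 on GRCm38, the assembly mm10 names. Python 3.11.15, numpy 2.4.6, scipy 1.17.1 and pandas 2.3.3 were used. The call of 2 times between clusters and the Poisson and ratio intervals were run on simulated counts, with outcomes not given here. The strain and bulk calls were not.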

Additional observations from a re-analysis of the deposited data

How the results depend on the processing

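Other thresholds, minimums, scalings and cell filters, and 1 setting chosen after seeing the data, which left out cells whose barcode both libraries hold, gave 60 recomputed counts, of which 41 stayed within 1.5 times the value reported. Of 90 recomputed levels in the highest cluster, 89 stayed within the Poisson interval, and Pde5a in cluster 9 of B6129PF1/J rose to 2.57 UMIs per 10,000 after thinning. The count of genes highest in the same cluster of both libraries was 8 or 9 under every alternative run. The 1 gene at least 2 times as high in cluster 4 as in cluster 2 (Nos3) became 0 after thinning, without the deepest cells and at a limit of 3 times, and 3 with no minimum of UMIs. The reverse count of 3 became 1 after thinning. The 2 strain differences became 1 under the mean over cells (Kcnj5), thinning (Avpr1a), without the deepest cells (Kcnj5) and at 2 times (Kcnj5). The 1 of the 9 genes past 1.5 times between Ihh genotypes (Avpr1a) became 0 with a pseudocount of 1 and at 2 times, and the 5 listed vasomotor genes became 1, 24 and 0 with a pseudocount of 1, no minimum FPKM and a limit of 2 times. For SAG, the 0 of the 9 genes became 3 with no minimum FPKM, and the 4 listed genes became 1, 23 and 1 under the same 3 settings. Of the 4 genes in the choroidal EC table, 2 were at least 10 times as high in choroid as in every other tissue. The cause of these shifts was not tested, other than that a limit, minimum or pseudocount acts directly on low values. No paired analysis was possible because the bulk tables hold group means and each strain has 1 library. The read depth behind the FPKM is unknown, which limits genes under 1 FPKM most.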
